A study of Gallus gallus with 12 samples.

Results

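Primordial germ cells (PGC) are the embryonic founders of eggs and sperm, and 3 of the 12 arrays of the study, 1 per sample, hold their RNA. They were set against the 9 other arrays, 3 each of gonadal stromal cells (GSC), embryonic fibroblasts (CEF) and blastoderm. Genes were ranked in each direction by the gap between the PGC mean and the nearest of the 3 other group means, so a gene ranks high only if it separates PGC from all of them. All samples came from White Leghorn chickens. Each PGC sample was 270000 cells sorted magnetically from gonads of 100 embryos of mixed sex at day 6.5 of incubation. Each GSC sample was 9000000 cells, the somatic remainder of gonads from 100 such embryos. Each CEF sample held 6000000 fibroblasts grown out of 5 embryos of day 6.5 and passaged in culture. Each blastoderm sample held 530000 cells from 5 freshly laid, unincubated eggs. Every array received 5 µg of total RNA. Nothing in the sources used here names the antibody of the sort. The replicates are labelled as biological, each group pools animals, and CEF is the sole group that was cultured.

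In birds, germ cells are set aside early by maternally supplied germ plasm, travel through the blood and enter the gonadal ridge, where they multiply before meiosis begins. Germ plasm proteins such as the DDX4 helicase and the RNA-binding proteins DAZL and DND1 control the fate of germ line transcripts. The PIWI proteins and their tudor-domain partners use small RNAs, the piRNAs, to silence transposons. The embryonic gonad lies on the mesonephros, the working kidney of the embryo, whose tubules reclaim sugars, amino acids and proteins.

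The values are log2 levels. Levels up to 3.61, which 99% of 746 probe sets for viruses and reporters did not exceed, are called background. Array medians lay between 3.45 and 3.60. Of known germ cell markers, DDX4, DAZL, DND1 and KIT were higher in every PGC array than in all 9 others. Of 27 measured germ plasm and RNA-binding genes, 11 were so and 1 was lower in every PGC array. Of 30 measured kidney genes, 16 were so, against 8.76% of all genes. These are the values that the ranking uses, so the 4 markers are no separate check of the label. The PGC arrays were not alike, however. PGC replicate 3 correlated at 0.974 with its own group, against 0.981 and 0.982 for replicates 1 and 2, and at 0.963 with the GSC arrays, against 0.931 and 0.940. The summed linear level of 36 gonadal somatic markers was 5048, 7767 and 11844 in PGC replicates 1, 2 and 3, against 12458 to 15599 in GSC. In such bulk samples, fewer cells of a type and less RNA per cell cannot be told apart. Counts that lean on this array are therefore also given without it. The added poly-A transcripts averaged 7.35 ± 0.29 in PGC, against 4.67 ± 0.79 for GSC, 6.58 ± 0.51 for CEF and 4.72 ± 0.77 for blastoderm (log2, SD, n = 3). Every PGC array lay above all 9 others in this measure, most narrowly for PGC replicate 2 and CEF replicate 2. The exact two-sided permutation p was 0.0091. That p comes from 220 possible splits, and PGC was fully separated in this technical measure. RNA integrity, read as the excess of the 3′ over the 5′ signal of actin and GAPDH, was 0.29 ± 0.14 in PGC, against 0.05 ± 0.07 for GSC, 0.34 ± 0.30 for CEF and 0.57 ± 0.20 for blastoderm (exact two-sided permutation p = 0.8909, PGC against the rest). The part of spike-in level and RNA integrity in the results below was not tested.

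Of 13008 genes, 944 (7.26%) were called higher in PGC than in each of the 3 other groups and 198 (1.52%) were called lower. A call needs a limma adjusted p below 0.05 in the same direction in all 3 comparisons. In the same 12 arrays, GSC had 680 genes (5.23%) called higher and 332 (2.55%) called lower by this rule, CEF 1386 (10.7%) and 1211 (9.31%), and blastoderm 1714 (13.2%) and 1451 (11.2%). PGC was therefore the group with the fewest genes called lower, and it had more called higher than GSC but fewer than CEF and blastoderm. No test of the difference between these counts was made. Over all 37693 probe sets, 1802 (4.78%) were called higher in PGC and 420 (1.11%) lower. Every PGC array lay above every other array for 1140 genes (8.76%) and below for 439 (3.37%). Without PGC replicate 3 the counts were 1210 higher and 351 lower, and without PGC replicate 1 they were 720 and 104.

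The higher genes reached much further than the lower ones. The gap of the higher genes had a median of 1.02, was at least 2-fold for 485 genes, at least 4-fold for 155, at least 8-fold for 64 and at least 16-fold for 18, with the widest at 5.25. The gap of the lower genes had a median of -0.72, was at least 2-fold for 41 genes and at least 4-fold for 0, with the widest at 1.85. The nearest other group was GSC for 430 of the higher genes, blastoderm for 308 and CEF for 206. Among the lower genes it was GSC for 108, blastoderm for 54 and CEF for 36. All 9 other arrays lay within background, and all 3 PGC arrays above it, for 97 of the 944 higher genes (10.3%). For such genes the fold is given as a lower bound.

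**Figure D1:**
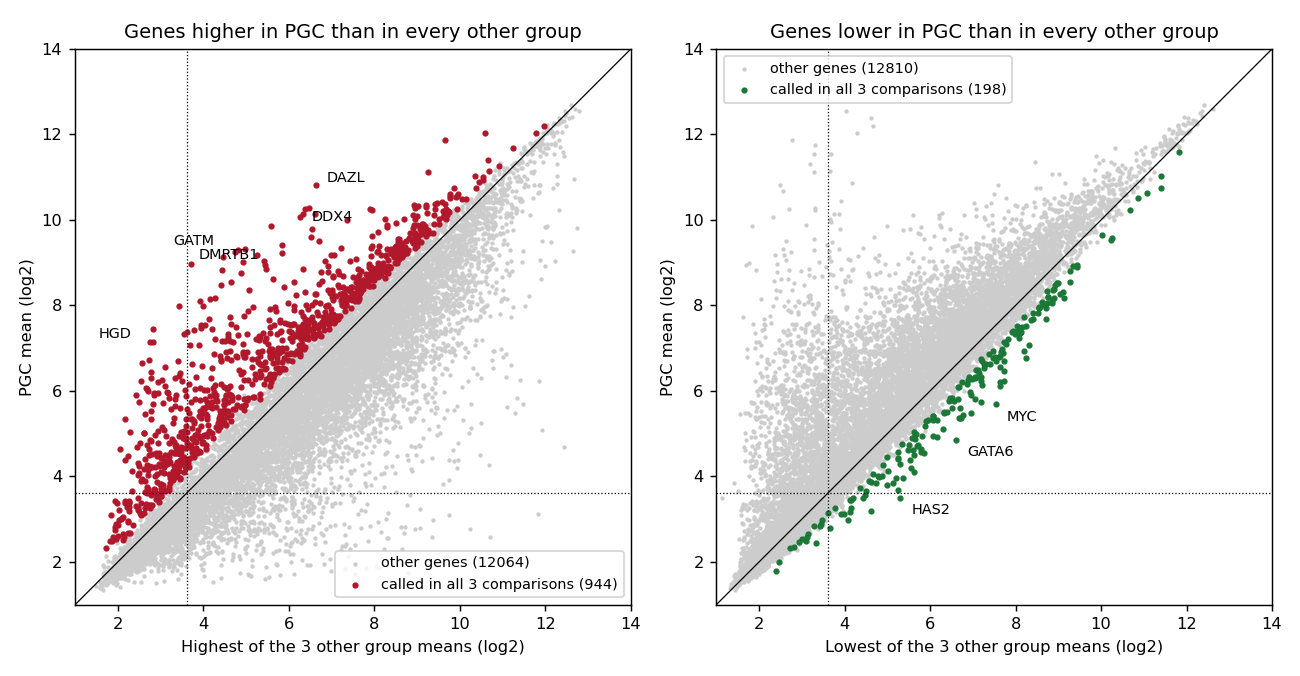
PGC mean against the highest (left) or lowest (right) of the 3 other group means, in log2, for 13008 genes. Coloured points are the 944 genes called higher and the 198 called lower in all 3 comparisons, dotted lines mark background, and the solid line marks equal levels. Higher genes stand up to 5.25 above the line, while lower genes reach 1.85 below it.

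Some germ plasm and RNA-binding genes were among the clearest marks of PGC. Of 27 measured members of that list, 11 were called higher in all 3 comparisons and 0 lower, against 7.26% and 1.52% of all genes. The median gap was 0.12, against 0.00 over all genes. Against blastoderm alone, 13 members were higher and 7 lower (26.3% and 23.5% of all genes). This list and the others were chosen with earlier results of these data known. DAZL, DND1, DDX4, TDRD5, STK31, TDRD9, CPEB1, ELAVL2, TDRD6, RBM46 and TDRD7 made up the 11, and DDX4, STK31, TDRD5, TDRD7 and TDRD9 also stand on the piRNA list. Without PGC replicate 3 the counts were 12 higher and 1 lower, where 9.3% of all genes were higher. Without PGC replicate 1 they were 10 and 0, where 5.54% of all genes were higher, and TDRD7 lost its call. DAZL, which binds germ line messengers and promotes their translation, stood at 11.06, 11.22 and 10.14 in PGC, against 6.88, 6.49 and 6.53 in GSC, 2.07, 2.97 and 2.43 in CEF and 5.98, 6.17 and 6.32 in blastoderm. The PGC arrays did not overlap with any other, and CEF lay within background. The gap to GSC was 4.17 (SE 0.28), an 18.0-fold difference (limma adjusted p = 3.64e-08).

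DDX4, the vasa helicase, had 10.40, 10.48 and 9.30 in PGC, against 5.29, 5.12 and 5.16 in GSC, 2.03, 2.41 and 2.54 in CEF and 6.65, 6.23 and 5.93 in blastoderm. Blastoderm, not GSC, was nearest, and the gap of 3.79 (SE 0.28) equalled 13.8-fold (limma adjusted p = 2.91e-08). DND1, which shields germ line messengers from microRNAs in zebrafish, was the steadiest of these genes at 8.77, 8.84 and 8.64 in PGC. It read 4.58, 4.64 and 4.43 in GSC, 4.56, 4.94 and 4.42 in CEF and 4.87, 4.90 and 4.90 in blastoderm, so the 3 other groups were nearly level. Its gap was 3.86 (SE 0.19), or 14.6-fold. CPEB1, which controls cytoplasmic polyadenylation, and ELAVL2, an RNA-binding protein related to the neuronal Hu proteins, were nearest to blastoderm too, with gaps of 2.55 (SE 0.28) and 2.14 (SE 0.26).

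Not every germ line RNA-binding gene followed. LIN28A, an inhibitor of let-7 microRNA processing, lay between groups, at 5.36, 5.29 and 4.99 in PGC, against 3.79, 4.15 and 3.96 in GSC, 4.39, 4.30 and 4.51 in CEF and 6.39, 6.17 and 6.56 in blastoderm. TFAP2C, a transcription factor of mammalian germ cell specification, averaged 5.17 ± 0.23 in PGC, against 3.21 in GSC, 3.28 in CEF and 9.48 in blastoderm (SD over 3 arrays). PRDM1, a repressor with a like role in mice, was within background in PGC. The meiosis-linked RNA-binding gene BOLL was also within background in PGC.

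The piRNA pathway was the list with the largest share of members called higher, 13 of 18 (72.2%), with 0 lower. Of all genes, 7.26% were called higher and 1.52% lower. The median gap of the list was 2.57, against 0.00 over all genes. PNLDC1, the exonuclease that trims piRNAs, led it with 8.61, 7.94 and 7.73 in PGC, against 3.82, 4.18 and 3.77 in GSC, 2.87, 2.65 and 3.21 in CEF and 3.58, 3.40 and 3.81 in blastoderm. PIWIL1, a PIWI protein that carries piRNAs, read 9.84, 9.84 and 9.13 in PGC, against 6.41, 6.49 and 6.63 in GSC, 4.22, 5.31 and 4.51 in CEF and 5.41, 5.12 and 5.28 in blastoderm. For both genes the lowest PGC array lay above the highest of the others. The gaps were 18.1-fold (4.17, SE 0.24) for PNLDC1 and 8.53-fold (3.09, SE 0.26) for PIWIL1.

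Several helpers of the PIWI proteins were called higher as well. ASZ1, a mitochondrial scaffold of the pathway, had a gap of 3.36 (SE 0.26), and GTSF1, which assists PIWI slicing, one of 2.35 (SE 0.26) from a high level of 10.26 ± 0.50 in PGC (SD, n = 3). TDRD5 and STK31, both with tudor domains, were within background in all 9 other arrays. The difference was at least 4.91-fold for TDRD5 and at least 6.04-fold for STK31. MOV10L1, the helicase that feeds precursors into the pathway, was at least 6.503-fold higher, and RNF17, a tudor-domain protein of germ granules, at least 5.08-fold.

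PGC replicate 3 decided the calls of 2 members in opposite ways. The count was 13 without it too, where 9.3% of all genes were called higher. TDRD1, which gathers PIWI proteins into granules, read 7.59, 7.63 and 5.38 in PGC, against about 4.31 in GSC, 3.39 in CEF and 6.15 in blastoderm on average. Replicate 3 thus lay below the blastoderm mean, the gap of 0.72 (SE 0.41) was not called (limma adjusted p = 0.188), and without that array the gene was called (largest limma adjusted p = 1.21e-05). GPAT2, an acyltransferase that takes part in piRNA production in mice, was called although its PGC mean lay within background, and lost the call without that array (largest limma adjusted p = 0.0826). TDRKH, HENMT1, FKBP6 and MYBL1 were the other members not called. FKBP6, a co-chaperone of piRNA loading, averaged 8.36 ± 0.48 in PGC, against 4.46 in GSC, 8.63 in CEF and 3.94 in blastoderm.

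**Figure D2:**
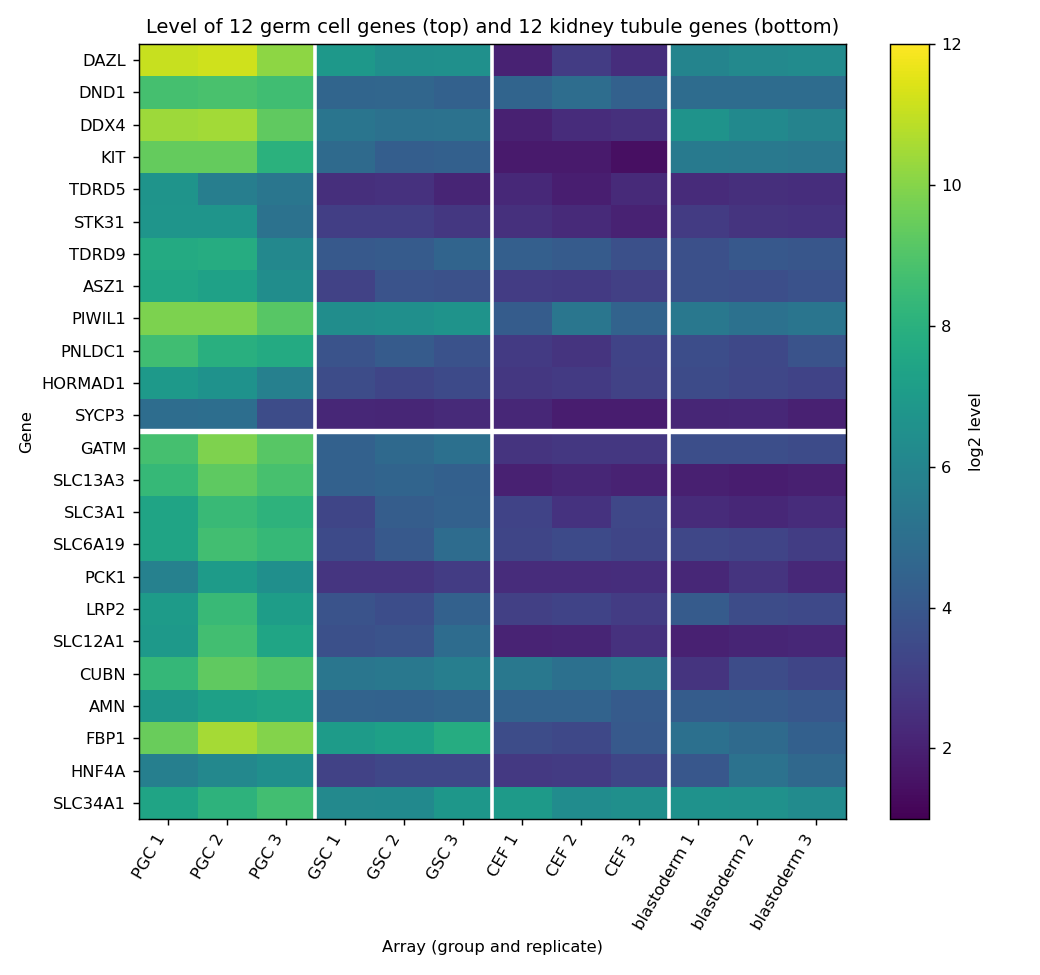
Log2 level on each of the 12 arrays of 12 genes known from germ cells (top) and 12 known from kidney tubules (bottom), PGC arrays at the left. The genes were picked from those called higher in PGC, so both blocks are brightest in the 3 PGC columns by choice. Members of these lists that were not called are not shown. In the top block PGC 3 is the dimmest PGC column for all 12 genes, and in the bottom block PGC 1 is the dimmest for all 12.

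Genes of meiosis split. Of 28 measured members, 7 (25%) were called higher in all 3 comparisons and 0 lower, against 7.26% and 1.52% of all genes, and the median gap was 0.00. Without PGC replicate 3 the higher count was 8 (28.6%, against 9.3% of all genes). Without PGC replicate 1 it was 6 (21.4%, against 5.54%). HORMAD1, a protein of the meiotic chromosome axis, read 6.90, 6.59 and 5.79 in PGC, against 3.58, 3.30 and 3.48 in GSC, 2.78, 2.88 and 3.16 in CEF and 3.52, 3.35 and 3.22 in blastoderm. All 9 other arrays were within background, which puts the difference at 7.06-fold or more. STRA8, the retinoic acid-induced gatekeeper of meiosis, read 4.36, 4.34 and 3.41 in PGC, so that replicate 3 fell within background with all other groups. SYCP3, of the lateral element of the synaptonemal complex, read 4.91, 4.99 and 3.55 in PGC, with replicate 3 again within background. It was at least 1.84-fold higher by the group means. HSF2BP, a partner of BRCA2 in meiotic recombination, was 3.85-fold higher, and MEI1 was called with a gap of 1.18. TEX12 and SMC1B were called too, but their PGC means lay within background, so no fold is given, and SMC1B lost its call without PGC replicate 1. The recombination genes SPO11 and DMC1 and the synaptonemal genes SYCP1 and SYCP2 were within background on the PGC arrays. TERB1, which anchors telomeres in meiosis, read 6.85, 6.40 and 3.91 in PGC, against 7.22, 5.98 and 6.06 in blastoderm, and was not called.

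The widest gap of all belonged to a transcription factor. DMRTB1, a DM-domain factor that in mice guides spermatogonia towards meiosis, read 9.27, 9.14 and 8.49 in PGC, against 3.71, 4.06 and 3.38 in GSC, 2.39, 2.39 and 2.49 in CEF and 2.70, 2.49 and 2.53 in blastoderm. CEF and blastoderm were within background, and the gap to GSC was 5.25 (SE 0.23), or 38.1-fold (limma adjusted p = 8.75e-10). ZIC2, a zinc finger factor of early neural and primed pluripotent cells, averaged 7.88 ± 0.68 in PGC (SD, n = 3), against 3.67 in GSC, 5.04 in CEF and 4.13 in blastoderm. CEF was nearest, with a gap of 2.83 (SE 0.33). The call of ZIC2 rests on 1 of its 2 probe sets.

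HES5, a repressor switched on by Notch signalling, had the next widest gap. It read 10.02, 9.03 and 8.33 in PGC, against 4.64, 4.67 and 4.05 in GSC, 3.89, 3.73 and 3.27 in CEF and 4.07, 4.48 and 4.70 in blastoderm. The PGC arrays spread over more than those of any other group, yet none overlapped with them, and the gap was 4.67 (SE 0.34), or 25.5-fold. NOTCH1, a receptor of that pathway, and HEY1, another of its targets, were called with smaller gaps of 0.77 (SE 0.23) and 0.85 (SE 0.28). Both lost the call without PGC replicate 1, and the call of NOTCH1 rests on 1 of its 5 probe sets. The ligand JAG1 was within background on the PGC arrays, and DLL1 was highest in blastoderm.

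The list of signalling receptors and homing genes, which also holds ligands and pathway targets, gave 5 of 40 members called higher and 0 lower. The 5 (12.5%, against 7.26% of all genes) were KIT, CDH1, NOTCH1 and the Notch targets HES5 and HEY1. Without PGC replicate 1, 3 of 40 were called higher (7.5%, against 5.54% of all genes). KIT, the receptor for stem cell factor that germ cells need to survive, read 9.41, 9.41 and 8.04 in PGC, against 4.80, 4.29 and 4.37 in GSC, 1.81, 1.81 and 1.44 in CEF and 5.52, 5.43 and 5.38 in blastoderm. It was 11.4-fold above blastoderm, the nearest group (gap 3.51, SE 0.30). CDH1, the epithelial cadherin, was steadier at 8.80, 8.90 and 8.64 in PGC, against 6.96, 6.97 and 6.85 in blastoderm, its nearest group (gap 1.86, SE 0.19). EPCAM, another epithelial adhesion molecule, averaged 9.87 ± 0.22 in PGC, against 5.71 in GSC, 1.84 in CEF and 12.04 in blastoderm. CXCR4, the receptor that steers germ cells along CXCL12 in chicken and zebrafish, also lay between blastoderm and the other groups, with 5.71 ± 0.46 in PGC, against 3.04 in GSC, 4.07 in CEF and 8.85 in blastoderm.

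Some pluripotency genes were higher in PGC than in every other group. Of 26 members, 4 (15.4%) were called higher in all 3 comparisons (ZIC2, TERT, MYCN and TFCP2L1) and 0 lower, against 7.26% and 1.52% of all genes. Without PGC replicate 1 the higher count was 3, where 5.54% of all genes were higher. TERT and TFCP2L1 were near background, at least 1.009-fold and 1.325-fold higher, and PGC replicate 3 was within background for TERT. The call of TFCP2L1 rests on 1 of its 2 probe sets. Taken by comparison, 13 members were higher and 3 lower in PGC than in GSC, where 16.8% and 13.5% of all genes were called. Against CEF 16 were higher and 3 lower (27.7% and 22% of all genes), and against blastoderm 5 were higher and 12 lower (26.3% and 23.5%). SALL4, a zinc finger factor of stem and germ cells, averaged 7.73 ± 0.41 in PGC (SD, n = 3), against 3.72 in GSC, 4.05 in CEF and 10.16 in blastoderm. OTX2 and SOX3 had the same order, with differences from blastoderm of -1.78 and -0.79 and from GSC of 4.71 and 5.04. DNMT3B, a DNA methyltransferase, was level between PGC and blastoderm at 11.15 ± 0.23 and 10.93, a difference of 0.22 (SE 0.22). SOX2 was within background in PGC, GSC and blastoderm. NANOG, POU5F3 and PRDM14 have no probe set with that symbol.

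Genes of kidney tubules stood beside those of germ cells. Of 30 measured members of the mesonephros and kidney epithelium list, 15 were called higher in all 3 comparisons and 0 lower, against 7.26% and 1.52% of all genes, with a median gap of 1.04. Without PGC replicate 3 and without PGC replicate 1 the count was 16 each time, where 9.3% and 5.54% of all genes were higher. GATM, which makes the precursor of creatine, read 8.74, 9.89 and 9.14 in PGC, against 4.41, 4.74 and 5.07 in GSC, 2.67, 2.77 and 2.79 in CEF and 3.64, 3.62 and 3.51 in blastoderm. The groups did not overlap, and the gap to GSC was 22.8-fold (4.51, SE 0.26, limma adjusted p = 1.07e-08). SLC13A3, a dicarboxylate transporter, was 20.7-fold above GSC (gap 4.37, SE 0.21).

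Several genes of tubular uptake were called higher. LRP2, the endocytic receptor megalin, read 7.06, 8.46 and 7.13 in PGC, against 3.82, 3.61 and 4.41 in GSC, 3.10, 3.22 and 2.96 in CEF and 4.15, 3.57 and 3.45 in blastoderm. Every PGC array was higher than every other by a wide margin (gap 3.60, SE 0.33). Its partners CUBN and AMN, the cubilin receptor and its anchor, had gaps of 3.38 (SE 0.27) and 2.67 (SE 0.20). SLC3A1, a subunit of the cystine transporter, and SLC6A19, a carrier of neutral amino acids, were 16.02-fold and 16.01-fold higher than in GSC. SLC12A1, the sodium, potassium and chloride cotransporter of the loop segment, was 11.7-fold higher (gap 3.55, SE 0.37).

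Some enzymes of gluconeogenesis were called higher. PCK1, the entry enzyme of gluconeogenesis, read 5.83, 7.05 and 6.47 in PGC and was within background in all 9 other arrays, a difference of at least 7.16-fold. FBP1, a later enzyme, was 6.16-fold above GSC, where it was itself high at 7.37 (PGC 9.99 ± 0.52, SD, n = 3). HNF4A, a transcription factor of kidney, liver and gut epithelium, was 2.84-fold above blastoderm (gap 1.504, SE 0.27). In the glycolysis and gluconeogenesis list, 4 of 23 were called higher (PCK1, FBP1, SLC2A2 and PCK2) and 2 lower (ALDOC and HK1), against 7.26% and 1.52% of all genes. G6PC, FBP2 and PC, which also serve to make glucose, were not called. PCK2 lost its call without PGC replicate 3 (largest limma adjusted p = 0.0837). ALDOC and HK1 both lost theirs without PGC replicate 1, and by the largest of the 3 p-values 0 members were called lower.

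Not all kidney markers were called. PAX2, a transcription factor of nephric epithelium, read 5.34, 5.31 and 6.40 in PGC, against 6.06, 5.73 and 5.36 in GSC, and was not called. LHX1, GATA3, SIM1, CALB1 and AQP2 were within background on the PGC arrays, and UMOD and PODXL were lower in PGC than in GSC. The summed linear level of the 30 members was 4022, 7479 and 5807 in PGC, against 2203 to 2232 in GSC, 568 to 958 in CEF and 640 to 697 in blastoderm. Which cells in the sorted fraction carried these transcripts was not tested.

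Of the 30 genes with the widest gaps, 4 were on the germ plasm, piRNA or meiosis lists and 4 were on the kidney list. That list does not hold every gene known from tubules, and TINAG, also among the 30, is not on it. Some of the others encode enzymes that modify drugs, hormones and foreign compounds. Of 25 measured genes of such detoxification and conjugation enzymes, a list put together after the values were seen, 15 were called higher and 0 lower, against 7.26% and 1.52% of all genes. UGT1A1, which adds glucuronic acid, read 8.78, 9.54 and 9.64 in PGC, against 4.34, 5.07 and 5.55 in GSC, 2.47, 3.04 and 3.21 in CEF and 2.74, 2.49 and 2.44 in blastoderm. Only GSC of the 3 other groups was above background, and the gap was 20.2-fold (4.34, SE 0.30). CYP1A2, a cytochrome of foreign compound oxidation, was within background outside PGC and at least 8.28-fold higher, and its call rests on 1 of its 3 probe sets. SULT1C3, a sulfotransferase, and PNAT10, an arylamine acetyltransferase, exceeded GSC by 14.1-fold and 14.6-fold. DIO1, the deiodinase that activates thyroid hormone, was at least 8.68-fold higher.

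Enzymes that break down tyrosine, tryptophan and sulfur amino acids formed a further group, also put together after the values were seen, with 9 of 21 called higher and 0 lower, against 7.26% and 1.52% of all genes. HGD and FAH are both enzymes of tyrosine breakdown. HGD read 6.93, 7.39 and 7.13 in PGC and lay within background elsewhere, a difference of at least 11.6-fold. FAH read 6.85, 7.59 and 7.54 in PGC, against 3.10, 3.51 and 4.04 in GSC, and was 13.7-fold higher. HPD, an earlier step of that path, was 6.73-fold above CEF, and ACMSD and HAAO of the tryptophan path were at least 4.90-fold and 5.65-fold higher. KYNU, also of the tryptophan path, and BHMT2, CTH and GLDC, which act on sulfur amino acids and glycine, were the other members called. DPYS, of pyrimidine breakdown, was 22.1-fold above GSC (gap 4.47, SE 0.34). TAT and TDO2, the entry enzymes of the tyrosine and tryptophan paths in liver, were within background on every array.

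Other leading genes were on none of the lists above, although at least TINAG is known from tubules. TUBA3E, an alpha-tubulin, read 10.33, 9.89 and 9.36 in PGC, against 5.75, 5.64 and 5.38 in GSC, 5.11, 5.03 and 4.83 in CEF and 5.14, 5.19 and 5.08 in blastoderm. The PGC arrays lay far above the 9 others, which were close together, and the gap was 19.3-fold (4.27, SE 0.22). CLDN10, a tight junction claudin, TINAG, a basement membrane glycoprotein of tubules, and ACSM3, which activates medium-chain fatty acids, were 16.9-fold, 16.8-fold and 15.3-fold above GSC. SRL, a calcium-binding protein of the sarcoplasmic reticulum, was almost constant at 6.23, 6.26 and 6.18 in PGC and at least 6.13-fold higher. ELAVL4, a Hu protein best known from neurons, had a gap of 3.61 (SE 0.23). It was 1 of 2 called among 18 neural markers (11.1%, against 7.26% of all genes), and the other, the retinoic acid binding gene CRABP1, with a gap of 0.79, lost its call without PGC replicate 1.

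**Figure D3:**
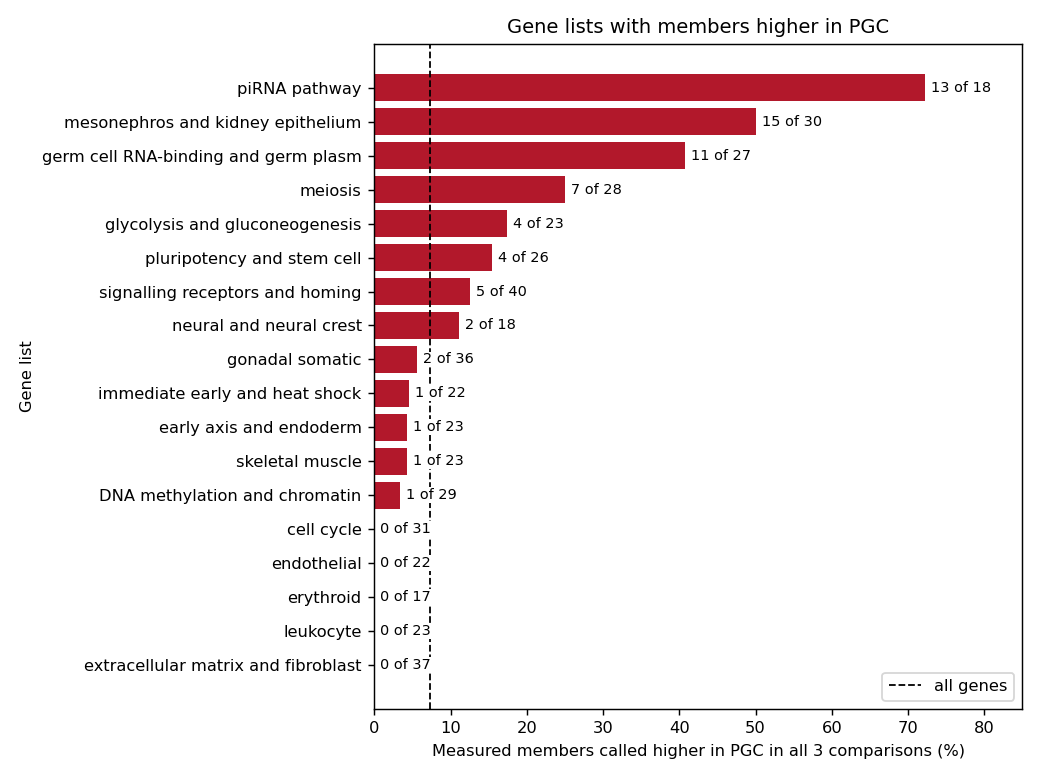
Percentage of the measured members of each of 18 gene lists, without the 3 put together after values were seen, that were called higher in PGC in all 3 comparisons, with the counts beside the bars. The dashed line marks all genes at 7.26%. The piRNA, kidney, germ plasm and meiosis lists stand furthest beyond it among these, and the cell cycle, endothelial, erythroid, leukocyte and matrix lists have 0 members called. The lists shown were also chosen with earlier results of these data known.

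The genes that marked PGC fell into groups that differed in how they varied among the PGC arrays. Among the 155 genes at least 4-fold higher, PGC replicate 1 was the lowest PGC array for 78, replicate 3 for 74 and replicate 2 for 3. Over all 944 higher genes, replicate 3 was the lowest for 612, replicate 1 for 219 and replicate 2 for 113. Over the 3 germ cell lists together, 26 of 65 measured members were called higher, against 7.26% of all genes. Replicate 3 was the lowest PGC array for 24 of the 26. For the 15 kidney genes replicate 1 was the lowest for all, and replicate 2 was the highest for 12. The called genes of the detoxification list had replicate 1 lowest for 13 of 15. The median called germ plasm gene was lower in replicate 3 than in the mean of replicates 1 and 2 by -0.99, and the median called kidney gene differed by 0.08. Replicate 1 differed from the mean of replicates 2 and 3 by 0.62 for the germ plasm genes and by -0.77 for the kidney genes. Over all 944 higher genes the median difference was -0.37 for replicate 3 and 0.28 for replicate 1. The PGC arrays ranked differently for these sets, as the plot of array differences shows, and with 3 arrays no test of this ordering was made. Replicate 1 was also the lowest GSC array by the median over all measured kidney members, with 3.63, 3.80 and 4.41 in replicates 1, 2 and 3. For the detoxification list the GSC medians were 4.34, 4.85 and 5.34. In CEF and blastoderm replicate 1 was not the lowest for either list. The part of replicate number in these orders was not tested.

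**Figure D4:**
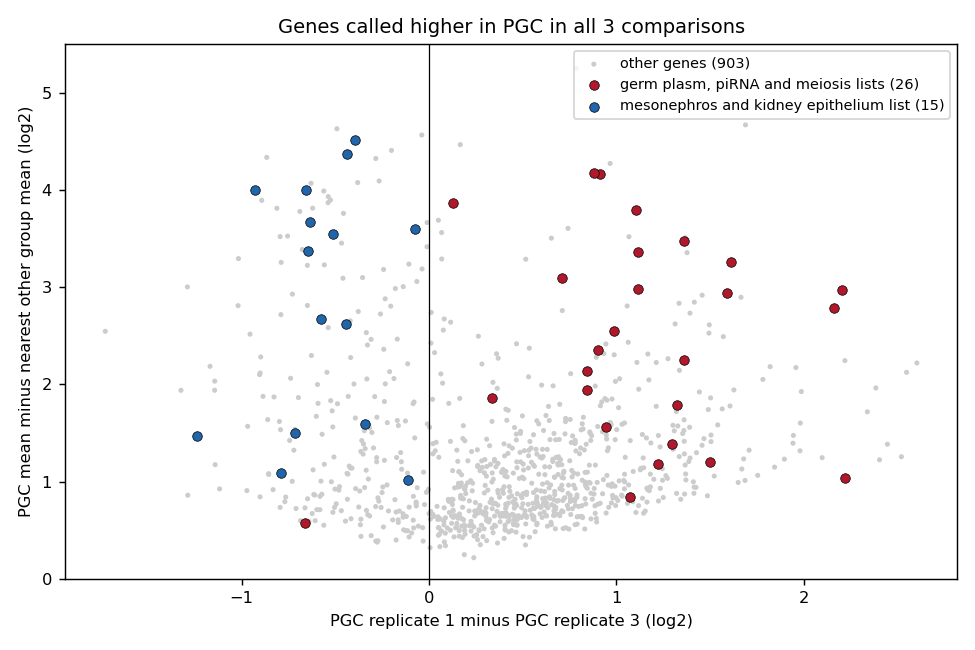
For the 944 genes called higher in all 3 comparisons, the gap to the nearest other group (vertical, log2) against PGC replicate 1 minus PGC replicate 3 (horizontal, log2). Red points are the 26 called genes of the germ plasm, piRNA and meiosis lists and blue points the 15 of the kidney list. All blue points lie left of 0 and all red points but 1 lie right of it.

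The other genes of the widest gaps followed either order. DMRTB1, HES5 and TUBA3E were lowest in replicate 3, as were the germ line genes among the 30. CMBL, GATM, SLC13A3 and TINAG were lowest in replicate 1 and highest in replicate 2. Over the 30 genes, replicate 1 was the lowest for 21 and replicate 3 for 9, and replicate 2 was the highest for 23.

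Genes lower in PGC than in every other group were fewer and closer. MYC, a driver of growth, read 5.33, 5.29 and 6.44 in PGC, against 7.82, 7.64 and 7.13 in GSC, 8.43, 8.08 and 8.92 in CEF and 11.11, 11.58 and 11.74 in blastoderm. All PGC arrays lay below all others, most narrowly for PGC replicate 3 and GSC replicate 3, and the gap to GSC was -1.85 (SE 0.29, limma adjusted p = 0.000268). Its relative MYCN went the other way, with 10.84, 10.79 and 10.17 in PGC, against 9.37, 9.16 and 9.06 in GSC, 7.38, 7.17 and 7.96 in CEF and 9.66, 10.06 and 10.13 in blastoderm. The gap of MYCN was 0.65 (SE 0.21), and its call was lost without PGC replicate 1.

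HAS2, which makes the matrix sugar hyaluronan, read 2.92, 3.34 and 4.21 in PGC, against 5.57, 5.08 and 5.26 in GSC, 6.26, 5.21 and 5.86 in CEF and 7.73, 7.59 and 7.28 in blastoderm. The first 2 PGC arrays were within background, and the gap was -1.81 (SE 0.31). GATA6, a factor of endoderm, heart and gonadal somatic cells, read 4.27, 4.29 and 6.005 in PGC, against 6.97, 6.61 and 6.27 in GSC, 8.03, 7.81 and 7.78 in CEF and 7.42, 7.69 and 7.31 in blastoderm. Replicate 3 came closest to the lowest GSC array, and the gap of -1.76 (SE 0.35) was -2.33 without replicate 3. DLC1, a tumour suppressor in mammals, had a gap of -1.51 (SE 0.34), and -2.09 without that array.

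Some of the other genes lower in PGC act in signalling and the cytoskeleton, while others among the 30 widest gaps, such as HSPA13 and ZBED4, are not described here. ROR1, a receptor for WNT5A, read 6.41, 6.64 and 7.28 in PGC, against 8.56, 8.33 and 7.86 in GSC, 8.40, 8.59 and 8.55 in CEF and 8.34, 8.37 and 8.37 in blastoderm. The 3 other groups were level, and the gap was -1.48 (SE 0.22). ETV1, a factor downstream of FGF signals, SMURF2, a ubiquitin ligase that limits TGF-beta signalling, and DUSP5, a phosphatase of ERK, had gaps of -1.42 (SE 0.23), -1.42 (SE 0.22) and -1.36 (SE 0.34), and the call of DUSP5 was lost without PGC replicate 1. CDC42EP3, an effector of CDC42, DACT1, a modulator of WNT signals, and PAK1, a kinase of the cytoskeleton, were lower by gaps of -1.502, -1.36 and -1.27. PTGS2, the inducible prostaglandin synthase, and ADM, adrenomedullin, had gaps of -1.23 (SE 0.22) and -1.25 (SE 0.28).

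Among the 198 lower genes, PGC replicate 3 was the highest PGC array for 127, and the gap was wider without it for 148. Of the 30 with the widest gaps, 20 had several probe sets, and all of them were called lower for 3 of the 20, with 0 called in the opposite direction. Of the 30 genes with the widest gaps above the other groups, 7 had several, all called for 3, with 0 opposed. EXOC5, of the exocyst, rests on 1 of its 4 probe sets, and DLC1, CDC42EP3, ETV1, DUSP5 and PTGS2 each rest on 1 of 2.

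**Figure D5:**
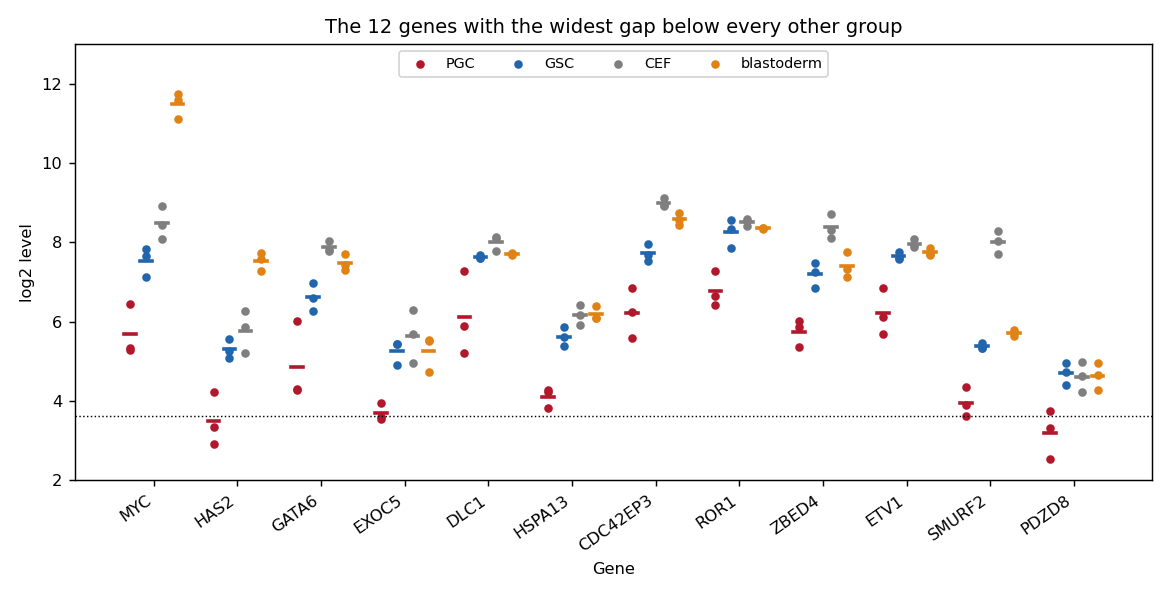
Log2 level of the 12 genes with the widest gap below every other group, PGC at the left of each gene. Points are arrays, bars are group means of 3 arrays, and the dotted line is background. For MYC, HAS2, GATA6 and DLC1 the highest PGC point is replicate 3.

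Markers of other cell types were checked over whole lists. In the gonadal somatic list 2 of 36 members were called higher (PTGDS and ESR2) and 1 lower (GATA6), shares near the 7.26% and 1.52% of all genes. In the comparison with GSC, 2 were higher and 20 lower, against 16.8% and 13.5% of all genes. NR5A1, a master factor of steroid-making cells, read 5.94, 6.02 and 7.46 in PGC and 8.22, 8.19 and 7.97 in GSC. AMH, the anti-Müllerian hormone, was high in PGC at 10.8, 11.7 and 12.2, against 12.1, 12.1 and 12.4 in GSC. Replicate 3 was the PGC array closest to GSC for NR5A1 and AMH. PTGDS, a prostaglandin D synthase of gonad and brain, was an exception, with 6.16, 7.45 and 7.89 in PGC and 4.55, 4.38 and 4.94 in GSC (gap 2.55, SE 0.34).

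Blood, vessel and matrix markers gave 0 calls in either direction over all 3 comparisons by limma, out of 17 erythroid, 22 endothelial, 23 leukocyte and 37 matrix members. Over all genes 7.26% were called higher and 1.52% lower. Against GSC, 7 erythroid, 13 endothelial, 3 leukocyte and 24 matrix members were lower (13.5% of all genes). Higher than in GSC were 3 matrix members and 0 of the others (16.8% of all genes). Matrix members gave 32 lower and 0 higher against CEF (22% and 27.7% of all genes), and 1 and 25 against blastoderm (23.5% and 26.3%). Erythroid members gave 13 higher and 1 lower against CEF, and 11 and 2 against blastoderm. At an unadjusted limma p below 0.05 in all 3 comparisons, the counts were 0 higher in each list, with 1 matrix gene lower. Of all 13008 genes, 1209 were higher and 375 lower by that rule. The summed linear level of the erythroid members was 18518, 15087 and 20895 in PGC, against 20217 to 27799 in GSC, 853 to 1064 in CEF and 965 to 1214 in blastoderm. The embryonic globin HBAD read 12.36, 12.56 and 12.70 in PGC, close to the top of the scale. The endothelial members summed to 612, 908 and 1535 in PGC and 1651 to 2027 in GSC, and the matrix members to 7209, 8905 and 15835 in PGC and 22147 to 23498 in GSC. KDR, the endothelial VEGF receptor, read 3.97, 4.61 and 5.02 in PGC, and PTPRC, the common leukocyte antigen, was within background on all PGC arrays. The part of these cells in the differences between PGC arrays was not tested.

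GAPDH, a common reference gene, read 11.72, 11.83 and 11.88 in PGC, within the range of the other groups, and was not called. ACTB had a gap of -0.24, was called lower, and lost the call when its probe sets were averaged. In the cell cycle list 0 of 31 members were called in all 3 comparisons by limma, against 7.26% higher and 1.52% lower of all genes. With unadjusted p-values the count was 0 too, and 20 members were lower in PGC than in blastoderm, where 23.5% of all genes were. At the edge of the call lay DDX25, AGTR1 and MYORG just inside the higher set, with largest adjusted p of 0.0493, 0.0497 and 0.0498, and KRT40, ARL14EP and MTHFD2L just outside, with 0.0505, 0.0505 and 0.0509. On the lower side CNTF, NETO1 and NBEAL1 lay just inside (0.0479, 0.0486 and 0.0492) and JAK1, PCGF2 and OSBPL11 just outside (0.0509, 0.0512 and 0.0513).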

How the data were processed

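RNA of 12 samples was measured on Affymetrix chicken arrays. The authors deposited log2 values for 38535 probe sets, and the submitters' processing notes name MAS5 without saying how the log2 values were made. Left out were 96 control and 746 viral or reporter probe sets. Of the 37693 probe sets kept, 27166 had 1 gene symbol, 177 several and 10350 none. Each of the 13008 genes is represented by 1 probe set, that of highest mean level, and symbols were updated by gene ID to RefSeq. Sequences and positions of probe sets were not used here.

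All arrays were fitted with limma 3.58.1 in R 4.3.3 (lmFit, eBayes with intensity trend, two-sided), as 4 groups, with contrasts of PGC against each other group and Benjamini-Hochberg adjustment over all probe sets. SE is that of the fit. P-values measure 1 spread per probe set, shared by the 4 groups of 3 arrays and moderated over probe sets. The number of arrays limits precision. Where PGC arrays varied more than the others, SE and p-value understate the PGC spread. For DLC1 the SD was 1.05 in PGC, against 0.04 in GSC, 0.19 in CEF and 0.03 in blastoderm. For a group within background on all its arrays, a fold is a lower bound, taken against the higher of background and its own level per array. The steps were also run on simulated arrays with 1 spread per probe set for all groups. That run cannot speak for PGC arrays that vary more than the others.

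The rule for named genes takes the 30 genes with the widest gap per direction that were called without overlap between PGC and other arrays, up to 6 called members per list and direction, genes at the edge of the call, and a set of marker and control genes. Further list members named were chosen after their values were seen. The members and lists were chosen with earlier results of these data known. Replicate numbers are shared between groups. PGC arrays did not deviate together with same-numbered arrays of the other groups (r from -0.18 to 0.20), and the fit was not paired. Same-numbered arrays among the 3 other groups were not compared in this way. Their added poly-A transcripts averaged 5.54, 4.45 and 4.01 in GSC replicates 1, 2 and 3, and 5.56, 4.57 and 4.04 in blastoderm. CEF had 6.01, 7.00 and 6.74. Alternatives were offsets, a background filter, quantile and median scaling, other variance priors, array weights, a minimum change, other forms of the test, a replicate block, and each array left out.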

Additional observations from a re-analysis of the deposited data

How the results depend on the processing

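Of probe sets, 1802 were called higher and 420 lower in PGC. The higher count was 951 with a minimum change of 2-fold and 5735 with 1 contrast against the mean of the other groups, and ran from 1356 (without PGC replicate 1) to 2398 (without PGC replicate 3) when arrays were left out. The lower count was 245 with an offset of 64, 984 with array weights, 79 with a minimum change of 2-fold, 181 by the largest of the 3 p-values and 5744 with 1 contrast. With arrays left out it ran from 208 (without PGC replicate 1) to 702 (without PGC replicate 3), and was 254 without GSC replicate 2. Other settings stayed within 1.5 times. The replicate block gave 1864 higher and 446 lower. The 1 contrast and minimum change ask other questions, and for the rest the cause was not tested.

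Of 101 named genes called, none reversed in any setting run. A reversal needs the PGC mean to pass from 1 side of all 3 other group means to the other. That could hardly occur for genes picked for wide gaps, so its absence says little. Calls lost numbered from 3 to 18 per setting, most without PGC replicate 1. An offset of 64 changed the fold of 75 by over 1.5 times, an offset of 16 that of 33, and the mean over probe sets that of 17. An offset shrinks gaps by construction, most where 1 side is low, so the size of many folds depends on how low levels are treated. Over all probe sets kept, not only those of named genes, 15389 (40.8%) had no group mean above background.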

Other observations

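Some secreted proteins best known from hepatocytes were also higher in PGC. Of 27 measured genes of such proteins, a list put together after the values were seen, 11 were called higher in all 3 comparisons and 0 lower, against 7.26% and 1.52% of all genes. TTR, the thyroid hormone carrier transthyretin, averaged 9.80 ± 0.46 in PGC (SD, n = 3), against 5.53 in GSC, 6.54 in CEF and 3.89 in blastoderm. FGB, the fibrinogen beta chain, averaged 6.31 ± 1.02 in PGC and was within background elsewhere, a difference of at least 6.52-fold. AMBP, a protease inhibitor precursor, and FETUB, a fetuin, were at least 5.05-fold and 3.32-fold higher in PGC. ALB, AHSG, FGA and APOH, which hepatocytes make in bulk, were within background on the PGC arrays, and so were the fibrinogen gamma chain FGG and the retinol carrier RBP4.

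Among probe sets with no gene symbol, 356 of the 1802 called higher in PGC and 76 of the 420 called lower are unnamed here, and 17 of the unnamed higher ones had a gap of at least 8-fold. HSP90AB1, a chaperone, was called higher at 10.55 ± 0.15 in PGC, against 9.77 in GSC, 9.43 in CEF and 9.09 in blastoderm, and lost the call without PGC replicate 1. KDM5B, a histone demethylase, was the sole called member of 29 chromatin genes (3.45%, against 7.26% of all genes). Its gap of 0.71 (SE 0.25) was not called without PGC replicate 1.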
